A study of Sus scrofa with 16 samples.

Results

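Heart and skeletal muscle of newborn pigs were compared through their ATAC-seq peaks, which mark DNA that a transposase could reach in nuclei. A peak of either tissue on chromosomes 1 to 18 was called shared where it overlapped a peak of the other tissue by 1 bp, and heart-only or muscle-only where it did not. Heart had 70391 such peaks and muscle 54830, 125221 in all, out of 798988 peaks over the 8 lists of the series. They fell into 37278 heart-only peaks, 21204 muscle-only peaks, and shared peaks that numbered 33113 in the heart list and 33626 in the muscle list. Each list held the consensus peaks of 2 libraries. Per the labels the animals were female domestic crossbred pigs, sampled on the day of birth, with no treatment named. The methods of the study describe a pair of full-sib Berkshire × Tibetan hybrids aged 1 day, from which both tissues were snap-frozen. The skeletal muscle was longissimus dorsi, a muscle of the back, and the chamber of the heart is not given in the sources used here. Kidney, liver, lung and spleen of the same newborns were used below only to describe the sets, and the older livers of the series were not used. Nuclei were taken from homogenate freed of connective tissue chunks. Both tissues are bulk mixtures of cell types, so fewer cells of a type and less open chromatin per cell cannot be told apart. The lists hold no read counts per peak, the numbers of reads that the study gives per library were not used here, and a missing peak is a peak that was not called. Each list pools its libraries and gives no replicate error for a count, so no test was made. The 95% Wilson intervals given for shares cover counting error only.

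Cardiac and skeletal muscle contract through the same sarcomere of actin, myosin, troponin and titin, but build it from partly different genes. In both, an action potential acts on L-type calcium channels. Calcium then leaves the sarcoplasmic reticulum through ryanodine receptors, RYR2 in heart and RYR1 in skeletal muscle. It is pumped back by the calcium ATPases ATP2A2 (SERCA2) and ATP2A1 (SERCA1). The cardiac programme is controlled by factors such as NKX2-5, GATA4, TBX5 and HAND2, and the skeletal programme by the myogenic factors MYOD1, MYF5, MYOG and MYF6, which bind E-boxes in regulatory DNA. MEF2 and SRF act in both.

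The sequences at the summits of 7 set-specific peaks near genes of these programmes are shown, since the shares of peaks with GATA and E-box matches differed between the sets, as described below. Each window reaches 100 bp to either side of the summit, clipped to the peak, was read from the plus strand of Sscrofa11.1, and overlaps no annotated exon. Capitals mark matches on either strand to the E-box CAGCTG, the GATA motif AGATAAG, the NKX2 motif TNAAGTG, the TEAD motif ACATTCC, the AP-1 motif TGANTCA or the MEF2 motif. The heart-only windows lie 3.93 kb upstream of the nearest TNNT2 start (chr10:23763527-23763726), in an intron of MYOCD (chr12:56962015-56962214) and in the promoter of NPPA (chr6:71921537-71921736).
TNNT2: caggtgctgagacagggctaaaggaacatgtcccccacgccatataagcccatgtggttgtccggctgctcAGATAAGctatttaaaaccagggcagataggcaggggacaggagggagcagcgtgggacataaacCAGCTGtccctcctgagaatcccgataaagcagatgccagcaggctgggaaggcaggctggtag
MYOCD: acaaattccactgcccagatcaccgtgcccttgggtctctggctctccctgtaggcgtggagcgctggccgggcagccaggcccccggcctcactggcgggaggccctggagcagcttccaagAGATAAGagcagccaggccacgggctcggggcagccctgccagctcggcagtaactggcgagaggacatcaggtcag
NPPA: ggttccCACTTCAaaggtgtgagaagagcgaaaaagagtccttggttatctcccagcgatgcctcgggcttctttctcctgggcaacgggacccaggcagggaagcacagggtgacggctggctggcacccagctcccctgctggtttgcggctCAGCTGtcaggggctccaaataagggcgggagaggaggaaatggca
The muscle-only windows lie 18.8 kb downstream of the nearest TNNT3 start (chr2:1320977-1321176) and in introns of RYR1 (chr6:47340882-47341081), PAX7 (chr6:77219809-77220008) and SLN (chr9:36235067-36235265).
TNNT3: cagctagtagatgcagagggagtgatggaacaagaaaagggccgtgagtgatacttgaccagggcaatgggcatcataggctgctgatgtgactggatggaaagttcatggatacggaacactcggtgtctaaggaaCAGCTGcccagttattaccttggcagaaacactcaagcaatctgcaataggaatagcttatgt
RYR1: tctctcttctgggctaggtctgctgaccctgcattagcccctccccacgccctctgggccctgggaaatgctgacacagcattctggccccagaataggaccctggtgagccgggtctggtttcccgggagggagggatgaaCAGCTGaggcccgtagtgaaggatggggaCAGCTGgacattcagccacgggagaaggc
PAX7: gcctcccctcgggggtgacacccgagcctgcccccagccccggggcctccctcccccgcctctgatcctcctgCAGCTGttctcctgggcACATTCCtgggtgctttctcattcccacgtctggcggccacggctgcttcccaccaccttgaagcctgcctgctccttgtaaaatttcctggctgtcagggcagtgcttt
SLN: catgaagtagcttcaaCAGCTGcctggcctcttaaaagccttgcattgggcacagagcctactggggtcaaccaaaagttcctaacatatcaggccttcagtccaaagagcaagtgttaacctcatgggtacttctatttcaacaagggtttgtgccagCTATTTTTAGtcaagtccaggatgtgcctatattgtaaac
These 7 were chosen after their matches were seen, from 10 windows per set taken at genes of the lists. GATA matches lay in 3 of the 10 heart-only windows and in none of the 10 muscle-only windows, and E-boxes in 2 and 5. No match to any of the motifs marked was found in 4 heart-only windows and in 5 muscle-only windows. A match describes the letters and is no evidence that a factor binds there.

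The 4 genes taken as markers of the tissues were examined first. TNNT2, the cardiac troponin T gene (chr10:23749528-23759696), had 9 heart-only peaks and no muscle-only peak between 10 kb before and 10 kb after the gene, and its promoter had a peak in heart and none in muscle. That promoter peak was modest, with a −log10 p of 15.2 in replicate 1 and 7.601 in replicate 2. The peak printed above was stronger, at 19.8 and 21.5, and no peak of kidney, liver, lung or spleen overlapped it. TNNT3, the fast skeletal troponin T gene (chr2:1297826-1316865), had 12 muscle-only peaks and no heart peak of any kind in its locus, with 40.2 and 27.4 at the promoter. ATP2A1 (chr3:18545064-18568312) had 8 muscle-only peaks, no heart-only peak and 1 shared peak, with 18.8 and 12.6 at its promoter. ATP2A2 (chr14:31674659-31744981), used by heart and by slow skeletal fibres, had a shared promoter peak that was also called in all 4 other tissues. Its locus held 5 heart-only and 3 muscle-only peaks. TNNT2, TNNT3 and ATP2A1 thus carried peaks of the labelled tissue, whereas the ATP2A2 promoter did not tell the tissues apart.

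Promoters were taken from 2.2 kb upstream to 500 bp downstream of any annotated start. Among 18725 protein-coding genes, 1495 (7.98%) had a promoter peak in heart and none in muscle, 292 (1.56%) had one in muscle and none in heart, 11339 had both and 5599 neither. Of 75 matched members of the 5 cardiac lists, 24 (32.0%) had a promoter peak in heart alone and 3 in muscle alone. Among 68 members of the 4 skeletal lists these numbers were 1 and 27 (39.7%). Cutting the heart list to its strongest peaks, as many as muscle had, gave 21 cardiac and 32 skeletal members, while the counts over all genes became 1161 in heart alone and 951 in muscle alone. The background of the muscle counts thus depended on how many heart peaks were admitted. A heart-only promoter peak, whatever else the promoter held, was found in 41 of the 75 cardiac and 6 of the 68 skeletal members, beside 14.7% of all genes. A muscle-only promoter peak was found in 9 of the cardiac and 41 of the skeletal members, beside 5.13% of all genes. Loci, taken as the gene with 10 kb on both sides, held more heart-only than muscle-only peaks in 54 of the 75 cardiac members and 7 of the 68 skeletal members, beside 42.2% of all genes. More muscle-only than heart-only peaks were found in 11 of the cardiac and 57 of the skeletal members, beside 18.1% of all genes.

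**Figure D1:**
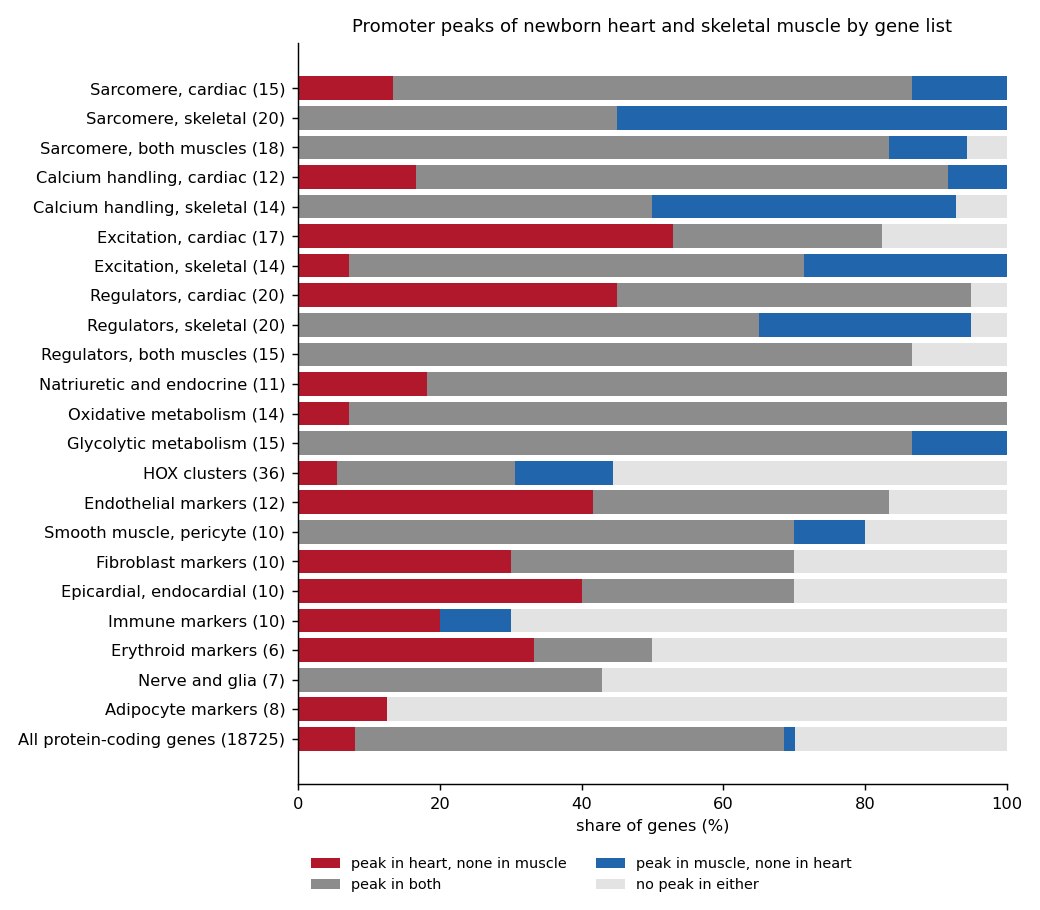
Share of the genes of each list (%, x axis) whose promoter had a peak in newborn heart alone, in both tissues, in skeletal muscle alone or in neither, with the number of matched genes in brackets. The skeletal lists show the widest blue segments, 11 of 20 genes for the sarcomere list, and the cardiac excitation and regulator lists the widest red ones among the muscle lists, 52.9% and 45.0%, beside 7.98% and 1.56% of all protein-coding genes.

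Contractile genes came first among the skeletal lists by the share of promoters with a peak in muscle alone. Of 20 skeletal sarcomere genes, 11 had a promoter peak in muscle alone, 9 in both and none in heart alone, and 16 loci held more muscle-only than heart-only peaks. All protein-coding genes gave 1.56%, 60.6%, 7.98% and 18.1% for these 4 classes. The strongest promoter peak of the 11 genes lay at MYBPC1, slow skeletal myosin-binding protein C, with −log10 p of 64.8 and 73.7 in the replicates. The essential light chain gene MYL1 followed with 47.3 and 54.4, and the fast regulatory light chain gene MYLPF had 22.2 and 22.6. For these 3 genes both replicates were strong and close to each other. The troponin I gene TNNI2 had 11.9 and 40.7, so that replicate 1 was much the weaker. The MYBPC1 locus held 24 muscle-only and 3 heart-only peaks (21.2 muscle-only peaks per 100 kb), and the MYL1 locus 7 and none.

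The skeletal myosin heavy chain genes form a cluster on chromosome 12. MYH1, MYH2, MYH4 and MYH8 had promoter peaks in muscle alone, and their loci held 13, 9, 5 and 3 muscle-only peaks and no heart-only peak. The fast myosin genes MYH1 and MYH2 gave 18.96 and 32.2, and 19.5 and 23.7, at the promoter. MYH4 was weak in both replicates, at 4.84 and 10.4, and MYH8, the perinatal myosin gene, was uneven, at 8.33 and 53.2. The embryonic gene MYH3 had promoter peaks in both tissues and 7 muscle-only against 1 heart-only peak in its locus. Neighbouring loci of the cluster overlap within 10 kb, so the same peak can count for 2 genes, and the genes are close paralogs whose reads may be hard to place. Further promoter peaks in muscle alone were found at MYBPH, MYOZ1 and TNNI2.

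Cardiac sarcomere genes were less divided. Of 15 genes, 2 had a promoter peak in heart alone (TNNT2 and the atrial light chain gene MYL7), 2 in muscle alone and 11 in both. Either class of 2 genes was 13.3% of the list, beside 7.98% of all genes in heart alone and 1.56% in muscle alone. MYL7 had 21.5 and 18.5. The 2 genes with a promoter peak in muscle alone were MYH7, the slow or beta myosin heavy chain, and MYL2, the slow or ventricular regulatory light chain. Both are also known as genes of slow skeletal fibres. MYH7 had 5.71 and 9.55 and MYL2 had 9.79 and 11.5, all low values. MYBPC3, cardiac myosin-binding protein C, showed how the promoter window can mix genes. Its heart-only peak of 19.8 and 19.7 lay 26 bp upstream of a start and was overlapped by no peak of the 4 other tissues, while the muscle peak that put it in the class of both reached the window from farther upstream and was called in every tissue. Its locus held 8 heart-only and no muscle-only peaks. MYH6, the alpha myosin heavy chain, had 5 heart-only and 1 muscle-only peak, and a heart-only promoter peak of 12.3 and 10.6.

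Among 18 sarcomere genes used by both muscles, 15 had promoter peaks in both tissues and 2 in muscle alone. The shares over all genes were 60.6% and 1.56%. The 2 genes were NEB and LMOD3, which encode nebulin and leiomodin 3 of the skeletal thin filament. NEB (chr15:546187-766131) carried 37 muscle-only peaks and no heart-only peak, the largest excess of muscle-only peaks among all genes, and its promoter gave 46.7 and 40.2. Its relative NEBL, the nebulette of the cardiac Z-disc, showed the opposite, with 26 heart-only and 2 muscle-only peaks. NEBL counted as a gene with promoter peaks in both, yet these lay at different starts, with 30.2 and 27.5 in heart and 6.31 and 7.72 in muscle. TTN, titin, had a shared promoter peak absent from the 4 other tissues, and 26 muscle-only, 8 heart-only and 24 shared peaks in its locus.

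**Figure D2:**
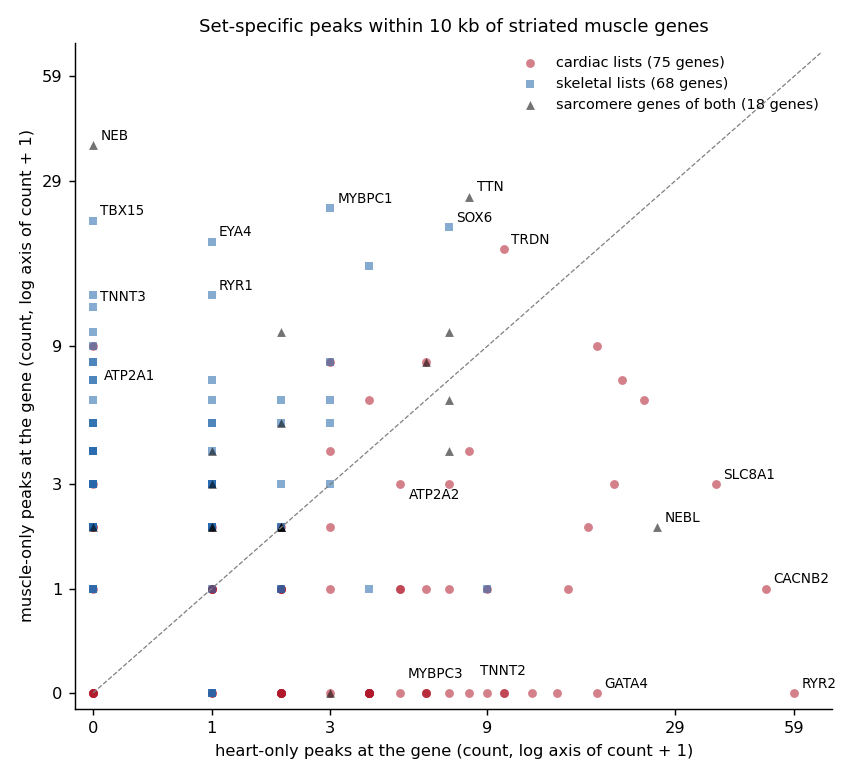
Heart-only peaks (x axis) against muscle-only peaks (y axis) within 10 kb of each gene of the cardiac lists (circles), the skeletal lists (squares) and the sarcomere list of both muscles (triangles), on log axes of the count plus 1; the dashed line marks equal counts and 1 point is 1 gene. RYR2 (59 and 0) and CACNB2 (50 and 1) lie at the far right and NEB (0 and 37) and MYBPC1 (3 and 24) at the top left.

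Calcium handling genes were divided by receptor. RYR2 (chr14:53652140-54406691) had 59 heart-only peaks and no muscle-only peak, the largest excess of heart-only peaks of any gene. The gene is long, and this amounts to 7.62 heart-only peaks per 100 kb. Its promoter peak gave 15.0 and 14.2 in heart. A heart-only peak 28.4 kb upstream of the nearest RYR2 start was far stronger, with 66.0 and 103 in the replicates, and no other newborn tissue had a peak there. RYR1 (chr6:47339759-47458457) had 13 muscle-only peaks and 1 heart-only peak, with 37.7 and 31.7 at the promoter. The intronic RYR1 peak printed above gave 78.0 and 69.7.

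Of 14 skeletal calcium genes, 6 had a promoter peak in muscle alone and none in heart alone, and 11 loci held more muscle-only peaks. For all genes the shares were 1.56%, 7.98% and 18.1%. The strongest promoter peaks of the 6 lay at TRIM72, a membrane repair gene, with 81.4 and 75.5, and at STAC3, an adaptor of the skeletal calcium channel, with 65.3 and 74.9. The channel subunit gene CACNG1 had 67.3 and 52.2. CACNA1S, the pore of the same channel, had only 8.25 and 7.79. Among 12 cardiac calcium genes 2 had a promoter peak in heart alone, 1 in muscle alone and 9 in both, beside 7.98%, 1.56% and 60.6% of all genes. Of the 12 loci 6 held more heart-only peaks and 5 more muscle-only peaks, beside 42.2% and 18.1% of all genes. PLN, phospholamban, had 19.6 and 37.0 in heart. SLN, sarcolipin, a regulator of the same pumps that is known from atrium and skeletal muscle, had its promoter peak in muscle alone, at 42.0 and 36.7, with 9 muscle-only peaks and no heart-only peak. The cardiac channel subunit CACNB2 and the sodium-calcium exchanger SLC8A1 had promoter peaks in both tissues but 50 and 37 heart-only against 1 and 3 muscle-only peaks. A heart-only peak at an SLC8A1 start, of 41.5 and 54.8, was among the 10 strongest heart-only promoter peaks, and kidney, liver, lung and spleen also had a peak there. TRDN, triadin, which is listed here as cardiac but serves both muscles, leaned to muscle with 10 heart-only and 18 muscle-only peaks. By small margins so did PLN (3 and 4), CASQ2 (1 and 2) and JPH2 (6 and 8).

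Genes of excitation and conduction had the highest share of promoters with a peak in heart alone among the cardiac lists. Of 17 cardiac excitation genes, 9 had a promoter peak in heart alone and none in muscle alone, and all 17 loci held more heart-only than muscle-only peaks (117 against 20 in sum). Over all protein-coding genes these shares were 7.98%, 1.56% and 42.2%, and the sums 30697 and 17612. The 9 were the potassium channel genes KCNE1, KCND3 and KCNJ5, the pacemaker channel HCN4, the connexins GJA5 and GJC1, the receptors ADRB1 and CHRM2, and desmoplakin, DSP. KCNJ5 had 13.2 and 19.3 and ADRB1 14.3 and 19.5 in the replicates. HCN4, with 3.80 and 5.31, ranked at percentile 2.48 of the promoter peaks of heart by the smaller value. Each of the 9 promoters had a heart peak overlapped by a peak of at least 1 of the other 4 tissues. The strongest ADRB1 heart peak overlapped none. The potassium channel gene KCNQ1 had no promoter peak in either tissue, yet held 18 heart-only against 9 muscle-only peaks.

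In the skeletal excitation list of 14 genes, 4 had a promoter peak in muscle alone and 13 loci held more muscle-only peaks. Among all genes 1.56% and 18.1% did so. The 4 were the chloride channel gene CLCN1 (36.0 and 37.4), the acetylcholine receptor subunits CHRNA1 (24.2 and 21.5) and CHRNG (3.93 and 14.3), and MUSK, the kinase of the neuromuscular junction (14.1 and 5.83). The MUSK peak was a shared peak by the overlap rule whose heart counterpart ended outside the promoter window. KCNA7 was the only skeletal list member with a promoter peak in heart alone, 8.61 and 16.3, and its locus held 3 muscle-only and no heart-only peaks. Its promoter peak was likewise a shared peak, whose muscle counterpart lay outside the window.

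Promoters of 10 of 20 cardiac and 13 of 20 skeletal regulators had peaks in both tissues, beside 60.6% of all protein-coding genes. Most of their loci leaned to the tissue of the list. Of 20 cardiac regulators, 9 had a promoter peak in heart alone (45.0%), none in muscle alone, 10 in both and 1 in neither, and 17 loci held more heart-only peaks while 3 held equal numbers. All genes gave 7.98% with a promoter peak in heart alone and 42.2% with more heart-only peaks in the locus. The homeobox gene NKX2-5 had 30.9 and 37.9, the coactivator gene MYOCD 21.1 and 23.0, HAND2 20.8 and 23.5 and GATA4 13.9 and 13.9. Replicates were close for these 4. Values were lower or uneven for TBX5 (10.2 and 16.1), IRX4 (11.7 and 10.005), HAND1 (6.72 and 20.02), GATA5 (4.39 and 15.5) and TBX2 (8.84 and 4.13). The GATA4 locus (chr14:14858470-14938156) held 18 heart-only peaks, MYOCD 14, GATA6 12 and TBX5 10, and none of them a muscle-only peak.

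Of 20 skeletal regulators, 6 had a promoter peak in muscle alone (30.0%), none in heart alone, 13 in both and 1 in neither, and 17 loci held more muscle-only peaks. All genes gave 1.56% with a promoter peak in muscle alone and 18.1% with more muscle-only peaks in the locus. MYMK, the fusion gene myomaker, went the other way with 9 heart-only peaks and 1 muscle-only peak. The myogenic factors were all among the 6. MYOD1 gave 44.9 and 63.2, MYF6 29.2 and 27.3, MYOG 13.6 and 24.4 and MYF5 5.56 and 5.99. MYF5 and MYF6 are neighbours on chromosome 5, with 5 and 7 muscle-only peaks, some of which may count for both, and no heart-only peak. PAX7, which marks muscle stem cells, had a weak promoter peak (4.83 and 12.7) but 10 muscle-only peaks, of which the strongest, printed above, gave 46.1 and 62.1. TBX15 (chr4:101918891-102032280), a factor of glycolytic fibres, carried 22 muscle-only peaks, no heart-only peak and 1 shared peak. Its promoter peaks were weak, at 6.34 and 26.8 for the strongest, whereas a peak 73.3 kb inside the gene reached 88.6 and 72.3. SIX4 and EYA4 had promoter peaks in both tissues. In the 15 regulators common to both muscles no promoter had a peak in 1 tissue alone. Of their loci 6 leaned to heart, beside 42.2% of all genes, and 6 to muscle, beside 18.1%.

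**Figure D3:**
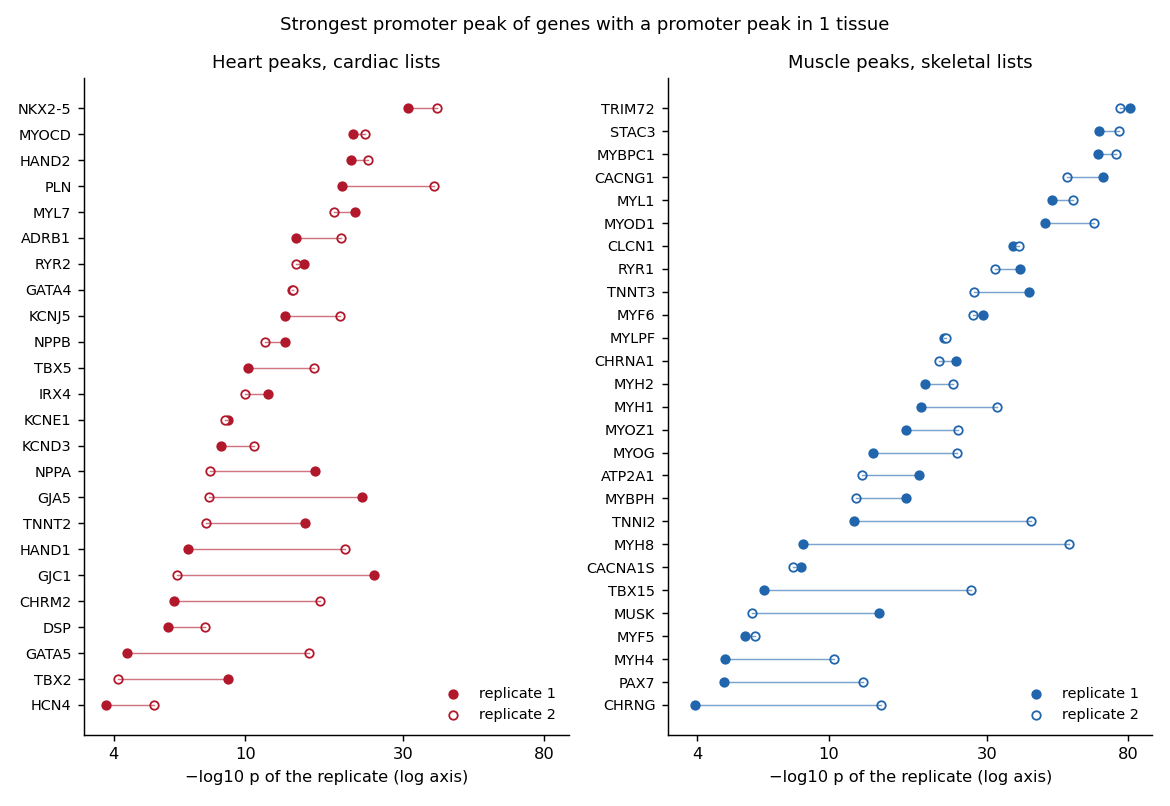
The −log10 p (x axis, log) of replicate 1 (filled) and replicate 2 (open) for the strongest promoter peak of the 24 cardiac-list genes with a promoter peak in heart alone (left) and the 27 skeletal-list genes with 1 in muscle alone (right), joined by a line for each gene. NKX2-5 (30.9 and 37.9) leads on the left and TRIM72 (81.4 and 75.5) on the right; levels are not comparable between the panels, which come from separate lists.

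Few of the cardiac promoter peaks met a limit on the irreproducible discovery rate (IDR), which is low for peaks that rank high in both replicates. At an IDR of 0.05 or lower, 5 of the 24 cardiac members were left (NKX2-5, MYOCD, HAND2, PLN and MYL7) and 16 of the 27 skeletal ones. The 5 had smaller replicate values of 18.5 or higher and the other cardiac members of 14.3 or lower, among them GATA4 and RYR2, whose replicates were close. Over all genes the counts were then 111 in heart alone and 83 in muscle alone, against any peak of the other tissue. The heart list held fewer such peaks in general. The limit was met by 6.45% of heart-only and 17.8% of muscle-only peaks, and by 34.8% and 37.6% of the shared peaks of the heart and muscle lists.

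The natriuretic peptide genes NPPA and NPPB, hormones of the heart wall that lie side by side on chromosome 6, each had a promoter peak in heart alone and 2 heart-only peaks in the locus. NPPA gave 16.2 and 7.85, with no overlapping peak of the 4 other tissues, and NPPB 13.2 and 11.5. The remaining 9 genes of the natriuretic and endocrine list had promoter peaks in both tissues, and CORIN, the protease that activates the NPPA product, had 17 heart-only against 2 muscle-only peaks. Metabolic genes mostly had promoter peaks in both tissues, beside 60.6% of all protein-coding genes. All but PPARA of 14 oxidative genes and all but AMPD1 and FBP2 of 15 glycolytic genes had promoter peaks in both tissues. The muscle deaminase gene AMPD1 gave 53.7 and 56.6 and FBP2, the muscle fructose bisphosphatase, 35.7 and 23.0, with no overlapping peak of another newborn tissue. PPARA had a weak heart-only promoter peak of 5.19 and 6.34. Glycolytic loci held more muscle-only peaks in 11 of 15 genes, beside 18.1% of all genes. Of the 14 oxidative loci 6 leaned to heart, beside 42.2% of all genes, and 5 to muscle, beside 18.1%.

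Genes of the HOX clusters, which give cells their position along the body axis, had a promoter peak in muscle alone in 5 of 36 cases (13.9%, beside 1.56% of all genes), in heart alone in 2 (5.56%, beside 7.98%), in both in 9 and in neither in 20. Loci leaned to muscle in 23 genes, beside 18.1% of all genes, and to heart in 5, beside 42.2%, with 66 muscle-only and 15 heart-only peaks in sum. The 5 were HOXA7, HOXB7, HOXC5, HOXC9 and HOXC13, and the 2 were HOXA13 and HOXD12. Adjacent HOX loci overlap, so these counts share peaks.

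Markers of other cell types were counted in the same way, beside 7.98% of all genes with a promoter peak in heart alone, 1.56% in muscle alone and 42.2% with more heart-only peaks in the locus. Of 12 endothelial genes 5 (41.7%) had a promoter peak in heart alone, none in muscle alone, and 11 loci held more heart-only peaks. These 5 were CDH5, TEK, TIE1, CLDN5 and SOX17, whose smaller replicate values ran from 4.35 to 13.0. Their heart promoter peaks were overlapped by peaks of all 4 other tissues. PECAM1, KDR, FLT1, ERG and NOS3 had promoter peaks in both. Epicardial and endocardial markers had 4 of 10 promoters with a peak in heart alone (WT1, ALDH1A2, UPK3B and PLVAP) and fibroblast markers 3 of 10 (LUM, TCF21 and THY1), with none in muscle alone in either list. Erythroid markers had 2 of 6 in heart alone, immune markers 2 of 10 in heart alone (IKZF1 and TYROBP) and 1 in muscle alone, and adipocyte markers 1 of 8 in heart alone (PPARG). Smooth muscle markers had 1 of 10 in muscle alone and none in heart alone, and none of 7 nerve and glia genes had a promoter peak in 1 tissue alone. The smooth muscle and immune genes with a promoter peak in muscle alone were LMOD1 and CD79A. Their promoter peaks and that of PLVAP were shared by the overlap rule, and the counterpart of the other tissue lay outside the promoter window. The leukocyte genes PTPRC and CD3E, the adipocyte genes LEP and FABP4, and the glial gene SOX10 had no peak of either tissue within 10 kb. Other members of these lists did, with 4 heart-only peaks at SPI1, 4 shared peaks at CD68 and at AIF1, 10 heart-only peaks at PRDM16 and promoter peaks in both tissues at ERBB3. The SPI1 locus overlaps that of its neighbour MYBPC3 and takes in the MYBPC3 start, so its peaks can also count for MYBPC3. The part of these cells in the heart-only and muscle-only sets was not tested.

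The sets were then compared with the other newborn tissues, which the rule did not use. Among peaks outside promoters, 58.2% of the muscle-only peaks (95% interval 57.5 to 58.9, n = 20115) had no counterpart in kidney, liver, lung or spleen, against 35.1% (34.6 to 35.6, n = 34061) of the heart-only peaks. Shared peaks outside promoters lacked a counterpart in 15.6% of the heart list and 15.3% of the muscle list. Kidney overlapped 45.7% of heart-only and 25.4% of muscle-only peaks, and lung 34.6% and 15.1%. The lists differ in length, with 128184 peaks in kidney, 115504 in liver, 81289 in spleen and 77408 in lung, so these shares do not rank the tissues. Peaks in promoters were more common in other tissues, with 10.6% of heart-only and 39.8% of muscle-only promoter peaks found in none of the 4. At the gene level, heart peaks in the promoter were checked for overlap with peaks of other tissues. For 3 of the 24 cardiac members with a promoter peak in heart alone (12.5%) none was overlapped, beside 6.35% of all 1495 such genes. For muscle peaks and the skeletal members this held in 18 of 27 (66.7%), beside 33.9% of 292.

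**Figure D4:**
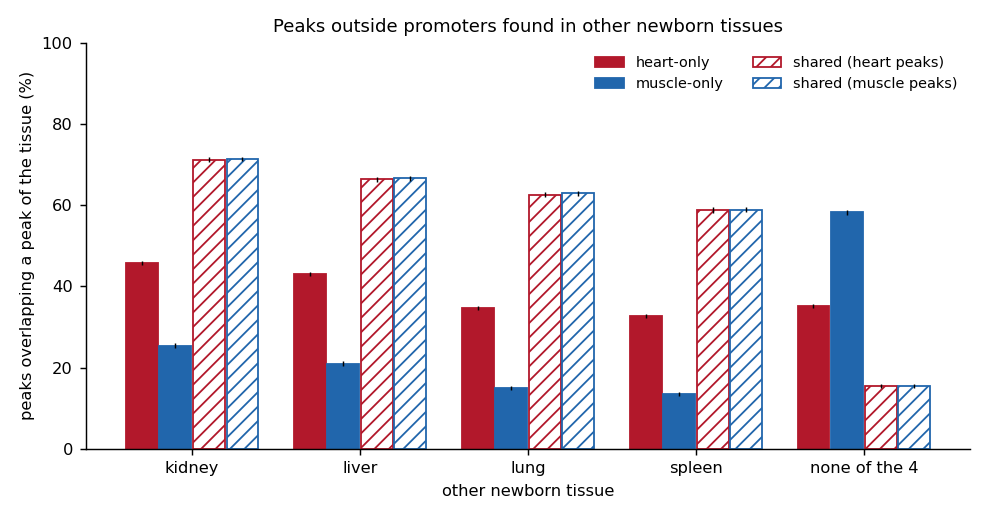
Share of the peaks outside promoters (%, y axis) that overlapped a peak of newborn kidney, liver, lung or spleen, or of none of the 4 (x axis), for heart-only (solid red), muscle-only (solid blue) and shared peaks (hatched); bars start at 0 and error bars are 95% Wilson intervals. Muscle-only peaks have the lowest share in each of the 4 tissues and the highest share in none, 58.2%.

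By position and strength the sets also differed. Promoters held 8.63% of heart-only and 5.14% of muscle-only peaks, but 35.6% of shared peaks in either list. Introns held 45.1% and 48.8% of the heart-only and muscle-only peaks and intergenic DNA 38.0% and 37.8%. Set-specific peaks were weaker and narrower than shared ones. Within the heart list the median of the smaller −log10 p was 5.86 for heart-only and 10.4 for shared peaks, and median widths were 384 and 700 bp. Within the muscle list the medians were 6.69 and 9.92, and 355 and 615 bp. Of the heart-only peaks 2223 (5.96%) lay within 500 bp of a muscle peak, and of the muscle-only peaks 1706 (8.05%) within 500 bp of a heart peak.

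Motifs were counted in windows of 200 bp at the summits of peaks outside promoters, on both strands. The E-box CAGCTG was found in 31.1% of muscle-only peaks (30.4 to 31.7) and 18.4% of heart-only peaks (18.03 to 18.9), a difference of 12.6 percentage points, and the muscle-only share was higher on 18 of 18 chromosomes. Shared peaks held it in 24.9% of the heart list and 26.4% of the muscle list, and it was present in 24.2% of all peaks outside promoters. In windows moved by 2 kb the shares were 11.3% for muscle-only and 11.5% for heart-only peaks. The median GC content of the peaks was 49.7% in muscle-only and 50.4% in heart-only peaks. Among peaks at an IDR of 0.05 or lower the E-box shares were 38.5% and 18.7%.

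The GATA motif AGATAAG showed the opposite. It was found in 5.98% of heart-only (5.73 to 6.23) and 1.32% of muscle-only peaks (1.17 to 1.49), higher in heart on 18 of 18 chromosomes, and in 3.29% of all peaks outside promoters. Its share in windows moved by 2 kb was 2.37% for heart-only and 2.54% for muscle-only peaks, so the muscle-only summits held fewer GATA matches than nearby DNA. At an IDR of 0.05 or lower the shares were 13.2% in heart-only and 1.06% in muscle-only peaks. The AP-1 motif TGANTCA was found in 13.4% of muscle-only and 8.61% of heart-only peaks, higher in muscle on 18 of 18 chromosomes. The E-box form CATCTG, linked to HAND and TWIST factors, was also more common in muscle-only peaks, at 21.3% against 17.2% (18.4% of all). The NKX2 motif TNAAGTG was found in 11.6% of heart-only and 9.76% of muscle-only peaks (9.98% of all), higher in heart on 16 of 18 chromosomes.

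Motifs of factors that serve both muscles were also counted. MEF2 matches lay in 1.93% of heart-only (1.79 to 2.08) and 1.76% of muscle-only peaks (1.59 to 1.96), or 3.36% and 1.59% at an IDR of 0.05 or lower, and in 2.92% and 2.84% of the shared peaks of the heart and muscle lists. Among shared peaks found in none of the 4 other tissues the MEF2 shares were 7.74% and 7.40%, beside 3.50% of heart-only and 2.38% of muscle-only peaks of the same kind. The SRF motif lay in 1.27% of heart-only and 0.92% of muscle-only peaks, higher in heart on 16 of 18 chromosomes. The TEAD motif ACATTCC lay in 4.49% and 4.44% of the heart-only and muscle-only peaks (4.57% of all). The CTCF motif was found in 5.23% and 5.50% of shared peaks, against 2.29% of heart-only and 1.07% of muscle-only peaks.

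**Figure D5:**
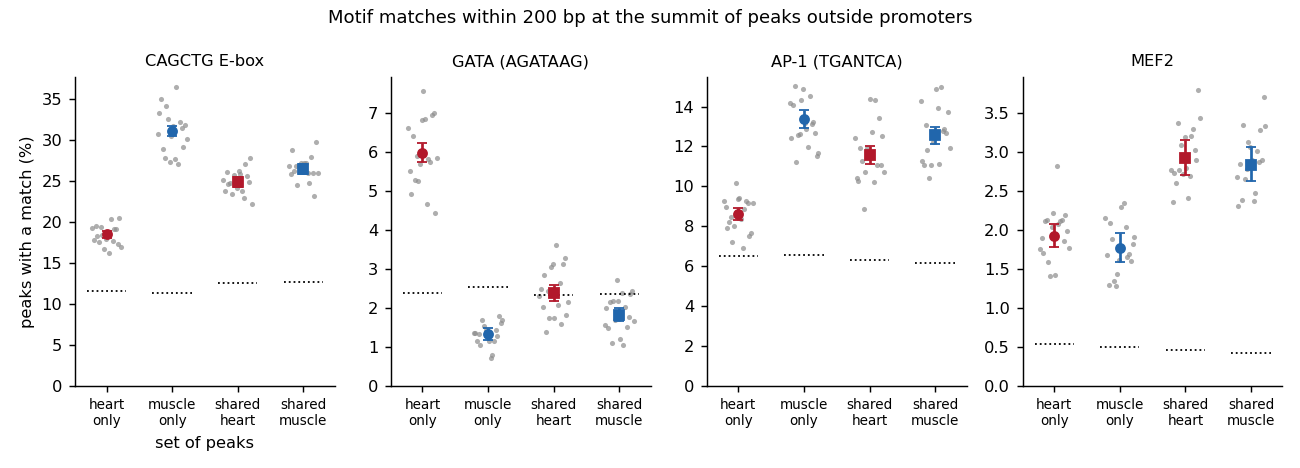
Share of peaks outside promoters with a motif match within 200 bp at the summit (%, y axis from 0) by set (x axis); coloured symbols with bars give the share and its 95% Wilson interval, small grey points the 18 chromosomes, and dotted lines the share in windows moved by 2 kb. The E-box is highest in muscle-only peaks (31.1%), the GATA motif in heart-only peaks (5.98%) and MEF2 in shared peaks (2.92% and 2.84%).

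The same letters were counted in the set-specific peaks at the genes of the lists. In 460 heart-only peaks outside promoters at cardiac genes, GATA matches lay in 41 (8.91%, 6.64 to 11.9), beside 5.98% of all heart-only peaks. E-boxes lay in 15.9% of these (12.8 to 19.5), beside 18.4%. In 263 muscle-only peaks outside promoters at skeletal genes, E-boxes lay in 68 (25.9%, 20.9 to 31.5), beside 31.1% of all muscle-only peaks. At the promoters of skeletal genes they lay in 27 of 67 muscle-only peaks (40.3%, 29.4 to 52.3), beside 32.2% of all 1089 muscle-only promoter peaks. AP-1 matches lay in 4.78% of the 460 heart-only peaks at cardiac genes (3.18 to 7.13), beside 8.61%. At skeletal genes they lay in 3 of 59 heart-only peaks outside promoters (5.08%), so in heart the lower share was found at both kinds of gene. In the 263 muscle-only peaks at skeletal genes they lay in 7.605% (4.98 to 11.5), beside 13.4%. Of 111 muscle-only peaks outside promoters at cardiac genes, 16.2% held AP-1 matches and 32.4% E-boxes. Peaks at the same gene are not independent and the intervals cover counting error only, so differences from the whole set were not tested.

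Beyond the lists, the loci with the largest excess of heart-only peaks after RYR2 and CACNB2 were MTUS2 (42 heart-only and 2 muscle-only peaks), SLIT3 (41 and 4), ABLIM1 (38 and 3), SLC8A1 (37 and 3), SEMA5A (34 and 1), NAV2 (44 and 11), PTPRM (39 and 7) and JAZF1 (35 and 5). SLIT3 and SEMA5A encode guidance molecules and ABLIM1 an actin-binding protein. The muscle-only excess after NEB was largest at ADCY2 (29 muscle-only and 2 heart-only peaks), MAF (27 and 2), TBX15 (22 and 0), MYBPC1 (24 and 3), PKNOX2 (22 and 1), KCNMA1 (27 and 6), LIMCH1 (24 and 5), ZNF385D (22 and 3) and RYR3 (20 and 1). RYR3, a further ryanodine receptor, thus leaned to muscle, and the promoter of ADCY2, an adenylate cyclase, had a peak in heart alone in spite of the muscle-only peaks around it. These loci span 113 to 999.9 kb, and the excess was not divided by length.

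The strongest set-specific peaks were examined last. The strongest heart-only promoter peaks lay near starts of SLC15A5, WDR63, FAM213A, MRVI1 and SLC8A1, with smaller replicate values from 52.1 down to 41.5. Those at WDR63 and SLC8A1 were also called in all 4 other tissues, and the peak at FAM213A in none. LRRC10, a gene known from heart muscle, was among the 10 strongest with 35.4 and 43.7, and no other newborn tissue had a peak there. Outside promoters the strongest heart-only peak lay 605 kb from the nearest start, that of BTBD3, with 70.6 and 88.6. The strongest named muscle-only promoter peaks lay at WNK2 (95.8 and 113), TRIM72, BEST3 (82.1 and 69.3), GRAMD1B and STAC3. Of these the GRAMD1B peak was also called in all 4 other tissues, those at WNK2 and STAC3 in kidney, and those at TRIM72 and BEST3 in none. Outside promoters the strongest muscle-only peak (147 and 143) lay 134 kb downstream of the nearest start, that of FAM13A. The next, 119 kb upstream of RUNX1 (170 and 140), was also called in spleen, and the FAM13A peak in no other newborn tissue.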

How the data were processed

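Omni-ATAC-seq was made from snap-frozen tissue, with 2 libraries per tissue. Per the study's methods, the authors mapped reads to Sscrofa11.1 (Bowtie2), dropped duplicates and reads of low mapping quality or mitochondrial origin (SAMtools 1.3.1), called peaks per library with MACS2 and merged them by IDR into the deposited lists. The deposited peak lists give −log10 p values for each replicate and, as the peak's value, the smaller of the pair. These values depend on depth and were compared only within a list. The reference had the build of the files.

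From the lists, peaks on chromosomes 1 to 18 were divided by 1 bp overlap and joined to protein-coding genes with pandas 2.3.3 and numpy 2.4.6 in Python 3.11.15. Of 328 list entries 313 were matched to a gene. Members and lists were chosen with earlier results of these data known. Genes named are list members with a promoter peak in 1 tissue or the most set-specific peaks, the markers, and the strongest peaks and loci; others were named after their values were seen. Shares have 95% Wilson intervals. No test was made. The scripts were tested on simulated data. Alternatives used IDR limits, equal numbers of peaks, other overlaps, promoters and windows, and single replicates. The livers of older pigs were not used.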

Additional observations from a re-analysis of the deposited data

How the results depend on the processing

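Of 87 alternative values, 54 moved by less than the limit set for them, 32 moved by more and 1 changed sign. With an IDR of 0.05 or lower in both lists there were 6594 heart-only, 9102 muscle-only and 7326 shared peaks, 1909 genes with a promoter peak in heart alone, beside 13 cardiac members, 1557 in muscle alone, beside 29 skeletal members, and set differences of 16.3 (E-box), 7.14 (GATA) and 0.63 (MEF2) percentage points. With that limit in the list itself only, these were 2405, 3775 and 11515 peaks, 111 genes in heart and 83 in muscle alone, 5 cardiac and 16 skeletal members, and 19.8, 12.1 and 1.77 points. Equal numbers of peaks gave 951 genes in muscle alone, 11.8 points for the E-box and 5.31 for GATA. Overlap of at least 50% of both peaks gave 10.8 and 4.07. A motif window of 100 bp gave 9.68 and 2.96, and -0.014 for MEF2, whose main difference of 0.16 points (heart-only minus muscle-only) was within counting error and changed sign. Using the bounds and values of a single replicate, with equal numbers of its strongest peaks per list, gave 741 to 999 genes in muscle alone (741 without replicate 1 and 999 without replicate 2), 11.80 to 11.84 points for the E-box, 5.24 to 5.38 for GATA and 0.12 to 0.61 for MEF2. The E-box difference stayed higher in muscle-only and the GATA difference higher in heart-only peaks in each of these alternatives. The IDR limits shortened the lists, and the cause of these shifts was not tested. Both tissues came from the same newborns per the study's methods, but no paired analysis was made, as no test was made. A peak missing from a list may be a peak that could not be called at the depth of its libraries.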

Other observations

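The strongest peaks of both lists lay in neither set-specific group. All of the 20 strongest peaks of the heart list and of the 20 strongest of the muscle list were shared, and 20 and 19 of them were also called in all 4 other newborn tissues. The strongest lay in an intron of SPOCK3, with −log10 p of 4031 and 2261 in the heart replicates and 3761 and 3018 in the muscle replicates. Several others lay near LOC100737110, between 4.34 and 6.23 kb from its nearest start in heart. CTCF matches were nearly absent from peaks found in no other tissue, at 0.19% of heart-only and 0.22% of muscle-only peaks outside promoters.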
